A study of Mus musculus with 8 samples.

Results

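The 33 genes described here are genes linked to amyotrophic lateral sclerosis (ALS) or frontotemporal dementia (FTD), together with genes of autophagy and the lysosome. Most ALS genes for RNA-binding proteins, and those of axonal transport, were set apart by the rule, while Atxn2, whose product binds RNA, is a member. They were chosen by symbol, and each of the 33 matched 1 row of a count table of 15693 genes. Bulk mRNA sequencing was done on cortex from 8 mice at 4 months of age, with 4 wild-type animals (WT) set against 4 labelled TDP-43Q331K, and all 8 libraries carry the batch number 1. Tardbp encodes TDP-43, which binds RNA, and Q331K names an ALS-linked amino acid change in that protein. The labels give WT animals the genotype C57BL/6J, whereas the design text of the series names C57BL/6N. The sources used here do not give the strain background of the mutants, the promoter of a transgene if there is one, or the sex of the animals, so that strain and genotype cannot be told apart. Nothing states that animals were pooled, and p values measure the spread between these libraries.

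Cells remove aggregated proteins and worn organelles by autophagy, in which a membrane grows around the cargo, closes, and fuses with the lysosome. Receptors such as the products of Sqstm1 and Optn link ubiquitin-tagged cargo to small ubiquitin-like proteins, encoded by Map1lc3a, Map1lc3b, Gabarap and Gabarapl1, which are attached to that membrane. Many genes that carry ALS or FTD mutations act in this route or in the endosomes and lysosomes at its end, and neurons, which do not divide, are known to depend on it.

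Sequences are shown for the members on which the description below turns. The coding sequences of the 4 ubiquitin-like members end as follows, over the last 60 bases before the stop codon, 5′ to 3′, from GENCODE M21 transcripts (GRCm38), with the codon of the glycine to which lipid is attached in capitals.
Map1lc3a: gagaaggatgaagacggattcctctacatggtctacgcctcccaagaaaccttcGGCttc
Map1lc3b: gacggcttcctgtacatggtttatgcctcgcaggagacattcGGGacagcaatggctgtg
Gabarap: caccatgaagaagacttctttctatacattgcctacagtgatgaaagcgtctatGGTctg
Gabarapl1: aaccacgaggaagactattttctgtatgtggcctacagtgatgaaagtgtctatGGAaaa
Map1lc3b encodes 5 residues after that glycine, and the other 3 genes encode 1, which the protease step of the pathway is known to remove. Whole coding sequences were 76.0% identical between Map1lc3a and Map1lc3b and 74.9% identical between Gabarap and Gabarapl1, and between 51.4% and 59.5% identical across these pairs. Map1lc3b also has 5 processed pseudogenes of at least 93.9% identity, of which Gm6055 was in the table, at 1.29 CPM in WT.

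Transcription of lysosomal genes is known to be driven by the factor encoded by Tfeb, which binds sites that contain the letters CACGTG. Those letters, a palindrome and so the same on both strands, were searched in the 250 bases before each start in the RefSeq promoter table (GRCm38.p6). Only exact matches were counted, and variants of the motif were not searched. Of its 32851 windows, 6.02% held CACGTG at least once and 0.0213% at least 4 times. Windows were found for 29 of the 33 members, not for Ubqln2, Nek1, Becn1 and Map1lc3a. These 29 members had 33 windows in all, as some have more than 1 start. Of the 33 windows 4 held the motif, each from a different member. Lamp1 held it at 4 places, which began 61, 45, 28 and 15 bases before the start, and Atxn2, Atg7 and Atg5 at 1 each. The Lamp1 window is printed because of those 4 matches, and those of Vapb and Grn, which held none, because these members had the smallest p values. Capitals mark CACGTG, and the strand is + for each.
Lamp1, chr8:13158911-13159160: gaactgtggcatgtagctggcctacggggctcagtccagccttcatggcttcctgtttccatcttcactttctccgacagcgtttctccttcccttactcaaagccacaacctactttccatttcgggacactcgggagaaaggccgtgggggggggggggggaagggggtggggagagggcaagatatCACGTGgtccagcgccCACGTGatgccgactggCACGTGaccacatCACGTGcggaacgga
Vapb, chr2:173737321-173737570: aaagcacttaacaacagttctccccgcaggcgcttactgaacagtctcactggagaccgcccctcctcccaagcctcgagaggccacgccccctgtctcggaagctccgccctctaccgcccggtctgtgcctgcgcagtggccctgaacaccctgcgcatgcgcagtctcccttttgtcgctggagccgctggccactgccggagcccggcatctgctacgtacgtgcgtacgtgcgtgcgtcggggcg
Grn, chr11:102430257-102430506: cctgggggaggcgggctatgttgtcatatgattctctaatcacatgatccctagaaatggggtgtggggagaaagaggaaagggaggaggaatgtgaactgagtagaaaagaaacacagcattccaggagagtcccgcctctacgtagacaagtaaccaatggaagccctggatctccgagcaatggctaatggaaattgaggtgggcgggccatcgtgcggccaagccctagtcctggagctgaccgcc

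The groups were compared over the whole table with the two-sided quasi-likelihood test of edgeR, after TMM scaling of the counts. Levels are in CPM, counts per 1000000 of the TMM-scaled library size. Library totals lay between 45253021 and 58115164 counts, and no member had fewer than 192 counts in a library. Tardbp ranged from 171 to 198 CPM in WT and from 141 to 167 CPM in TDP-43Q331K, with a log2 fold change of -0.25 (edgeR adjusted p 0.106). Xist marked 2 libraries of each group as female. Markers of cortical excitatory neurons summed to between 1570 and 1826 CPM in WT and between 1512 and 1646 CPM in TDP-43Q331K, with 5 of 5 lower, so that the labelled tissue was present in every library. Markers of the olfactory bulb and thalamus, which adjoin the cortex, summed to between 85.4 and 225 CPM in WT and between 173 and 278 CPM in TDP-43Q331K, with 10 of 10 higher. Those of the choroid plexus ran from 15.1 to 401 CPM and from 44.7 to 575 CPM, with 5 of 5 higher. No gene of these lists was at 0 and none passed the adjusted test. The part of these tissues in the results below was not tested, beyond the covariate fits reported with the processing.

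Of the 33 members, 0 had an edgeR adjusted p under 0.05, where 0.943% of all genes did, 0.344% higher and 0.599% lower in TDP-43Q331K. At an unadjusted p under 0.05 there were 8 members, of which Lamp2, Atxn2, Anxa11, Ulk1 and Optn were higher in TDP-43Q331K and Vapb, Grn and Map1lc3a lower. That is 24.2% of the members against 15.7% of all genes, of which 7.91% were higher and 7.77% lower. DESeq2 called 2 members, Vapb and Grn, both lower in TDP-43Q331K, where it called 4.47% of all genes. The libraries of the groups did not overlap in Vapb, Grn and Ulk1, which is 9.09% of the members against 9.68% of all genes, 4.49% higher and 5.19% lower. The differences were small. Log2 fold changes ran from -0.22 for Grn to 0.19 for Anxa11. Within 0.1 of 0 lay 22 of the 33, and 8838 of all 15693 genes. Of the members 15 were positive (45.5%, against 51.8% of all genes) and 18 negative. The median over the members was -0.0086, and over all genes 0.0045. For 28 of the 33 members the whole 95% interval lay inside a 1.25-fold change in either direction, which is 0.32 on the log2 scale. Intervals of Grn, Anxa11, Map1lc3a, Tfeb and Ccnf reached beyond it. Over all genes, intervals lay inside that bound for 59.6%.

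**Figure D1:**
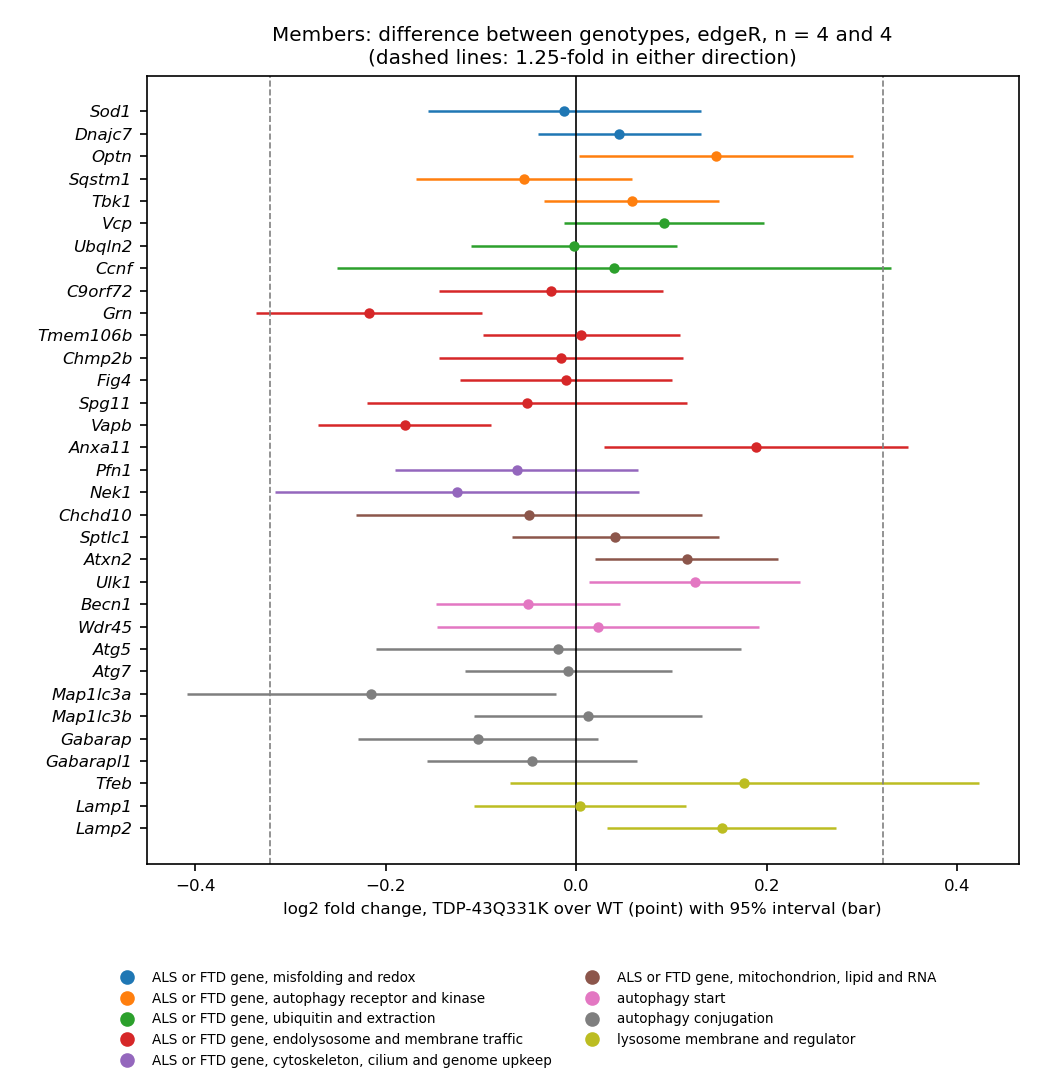
Log2 fold change of each of the 33 members (TDP-43Q331K over WT, x axis, points) with its 95% interval (bars), coloured by role, n = 4 libraries a group. Dashed lines stand for a 1.25-fold change; 28 intervals lie between them, and the intervals of 8 members leave out 0.

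Among members of the endolysosome and membrane traffic, Vapb and Grn stood apart between the genotypes. Values below are given in the order of replicates 1 to 4. Vapb encodes a protein of the endoplasmic reticulum that tethers it to other organelles, and was at 168, 162, 174 and 169 CPM in WT and 145, 154, 145 and 151 CPM in TDP-43Q331K. Each TDP-43Q331K library lay below the lowest WT library. Means were 168 ± 4.68 (SD, n = 4) for WT and 149 ± 4.29 (SD, n = 4) for the mutants, in CPM, and the fit gave a log2 fold change of -0.18 (SE 0.041, 95% interval -0.27 to -0.089, edgeR adjusted p 0.0761). DESeq2 gave an adjusted p of 0.000902, and over all 20 alternatives the adjusted p ran from 0.000902 to 0.288 and the log2 fold change from -0.22 to -0.17.

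Grn encodes progranulin, a secreted and lysosomal protein whose loss on one allele causes FTD in people, and was at 50.1, 50.8, 46.6 and 44.98 CPM in WT and 39.4, 41.9, 41.1 and 43.1 CPM in TDP-43Q331K. The groups did not overlap, and the WT values were spread more widely than those of the mutants. Means were 48.1 ± 2.77 (SD, n = 4) for WT and 41.4 ± 1.53 (SD, n = 4) for the mutants, in CPM, and the fit gave a log2 fold change of -0.22 (SE 0.054, 95% interval -0.34 to -0.10, edgeR adjusted p 0.0946). The DESeq2 adjusted p was 0.0088, and over the 20 alternatives the adjusted p ran from 0.0088 to 0.502 and the log2 fold change from -0.27 to -0.15, with the value nearest 0 under the olfactory bulb and thalamus covariate. In brain, Grn is known to be strongly expressed by microglia. Markers of that cell type summed to between 355 and 391 CPM in WT and between 330 and 392 CPM in TDP-43Q331K, and 8 of the 9 were lower, with a median log2 fold change of -0.044. None of the 9 passed the adjusted test and 1 had an unadjusted p under 0.05. The part of microglia in the Grn values was not tested, and in bulk tissue fewer cells of a type cannot be told apart from less RNA per cell. Sort1, which encodes sortilin, the receptor that takes up progranulin, is described with the other pathway genes.

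Anxa11 encodes an annexin that links RNA granules to lysosomes and was at 41.4, 42.5, 40.2 and 37.4 CPM in WT and 50.8, 47.98, 44.7 and 40.6 CPM in TDP-43Q331K. TDP-43Q331K replicate 4 lay within the WT range and the other 3 mutant libraries above it, with a log2 fold change of 0.19 (SE 0.072, 95% interval 0.029 to 0.35, edgeR adjusted p 0.241). Anxa11 has the pseudogenes Gm2260 (100% identical over 657 bases) and Gm2274 (99.7% over 609 bases), neither of which was in the count table. Tmem106b, a lysosomal membrane protein gene that modifies FTD risk, was at 228, 215, 205 and 224 CPM in WT and 212, 225, 222 and 215 CPM in TDP-43Q331K. Chmp2b, a subunit of the ESCRT-III complex that cuts membrane necks, was at 53.8, 49.5, 53.98 and 53.98 CPM in WT and 52.2, 57.6, 49.7 and 49.5 CPM in TDP-43Q331K. The groups of both genes overlapped, with log2 fold changes of 0.0052 (95% interval -0.10 to 0.11) and -0.016 (95% interval -0.14 to 0.11). C9orf72, in which a repeat expansion causes ALS and FTD in people, ranged from 24.1 to 26.6 CPM in WT (mean 25.8) and from 24.4 to 26.05 CPM in TDP-43Q331K (mean 25.3), with a log2 fold change of -0.027 (95% interval -0.14 to 0.091). Fig4, a phosphoinositide phosphatase gene, ranged from 35.4 to 38.3 CPM in WT (mean 36.8) and from 34.6 to 38.2 CPM in TDP-43Q331K (mean 36.5), and the log2 fold change was -0.011 (95% interval -0.12 to 0.10). Spg11 encodes spatacsin, which acts in the reformation of lysosomes, and ranged from 26.6 to 28.3 CPM in WT (mean 27.6) and from 23.02 to 30.1 CPM in TDP-43Q331K (mean 26.7). Its spread was 2.65% of the mean in WT and 10.9% in TDP-43Q331K, with a log2 fold change of -0.052 (95% interval -0.22 to 0.12). Exons of Spg11 overlap those of Eif3j1 on the other strand over 13.8% of their length, and the strand setting used in counting is unknown here. Gm3650, a pseudogene 99.9% identical to Spg11 over 747 bases, was not in the count table.

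**Figure D2:**
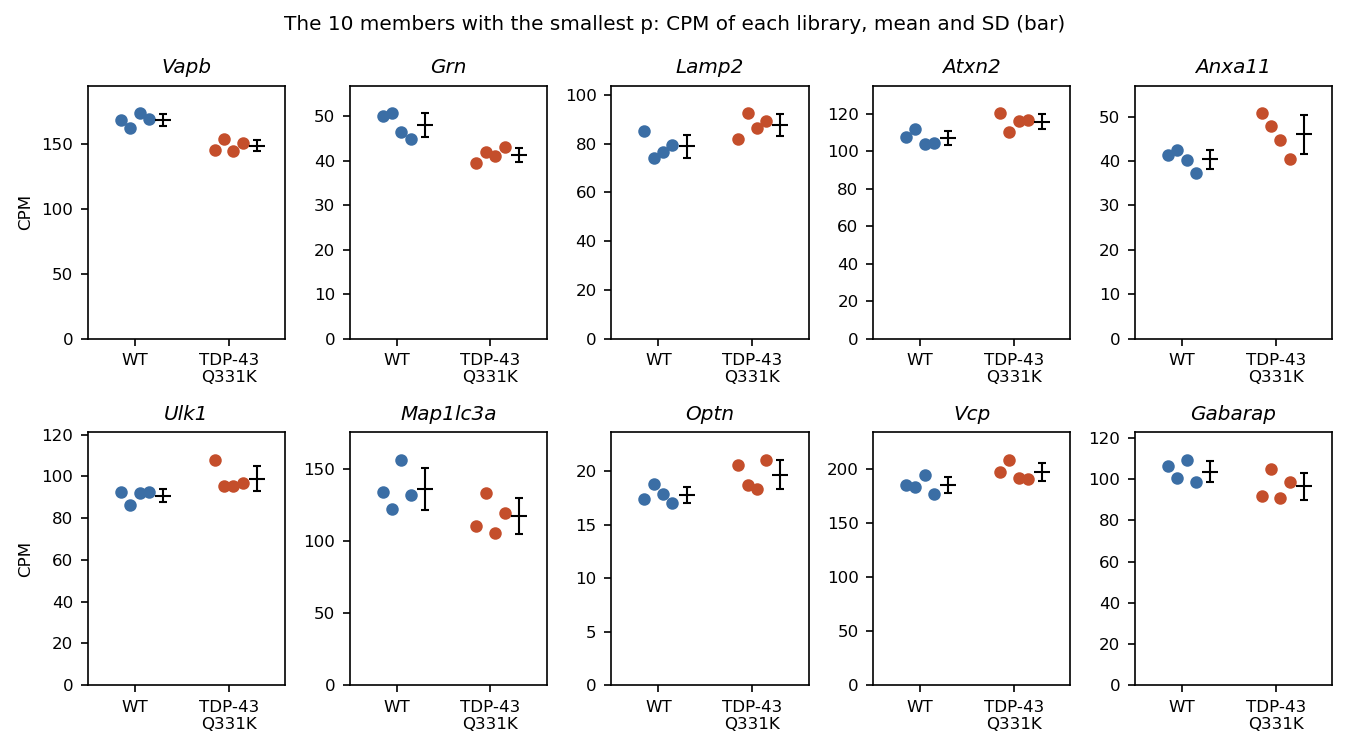
CPM of each library (points) for the 10 members with the smallest p, with the mean and SD of each group (black bars), n = 4 and the y axis starting at 0. In Vapb and Grn all 4 TDP-43Q331K libraries lie below all 4 WT libraries, in Ulk1 all 4 lie above, and in the other 7 members the groups overlap.

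Of the cargo receptors and their kinase, 0 passed the adjusted test, and Optn had the log2 fold change farthest from 0. Optn encodes optineurin, which binds ubiquitin on cargo, and was at 17.4, 18.8, 17.9 and 17.03 CPM in WT and 20.6, 18.7, 18.3 and 21.1 CPM in TDP-43Q331K. TDP-43Q331K replicates 2 and 3 lay within the WT range and replicates 1 and 4 above it, and the test gave a log2 fold change of 0.15 (SE 0.065, 95% interval 0.0031 to 0.29, edgeR adjusted p 0.308). Sqstm1 encodes p62, the receptor that gathers ubiquitin-tagged aggregates, and was at 425, 377, 390.4 and 382 CPM in WT and 385, 391, 362 and 377 CPM in TDP-43Q331K. WT replicate 1 was the highest of the 8 libraries and TDP-43Q331K replicate 3 the lowest, with a log2 fold change of -0.055 (95% interval -0.17 to 0.059). Tbk1, the kinase gene whose product phosphorylates both receptors, was at 51.6, 54.8, 54.3 and 53.5 CPM in WT and 56.6, 54.5, 57.6 and 54.4 CPM in TDP-43Q331K. Its groups overlapped, with a log2 fold change of 0.058 (95% interval -0.034 to 0.15). Exons of Sqstm1 overlap those of Mrnip on the other strand over 17.3% of their length, and Mrnip was at 3.92 CPM in WT.

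The 5 genes of ubiquitin handling, redox defence and protein folding all had log2 fold changes within 0.1 of 0. Vcp encodes an ATPase that pulls ubiquitin-tagged proteins out of complexes and membranes, and was at 185, 183, 195 and 177 CPM in WT and 197, 209, 192 and 190.3 CPM in TDP-43Q331K. TDP-43Q331K replicates 1 and 2 were above every WT library, and the log2 fold change was 0.092 (95% interval -0.013 to 0.20). Its pseudogene Vcp-rs, 99.05% identical over 2421 bases, was at 1.38 CPM in WT. Ubqln2 encodes a shuttle to the proteasome and was at 229, 213, 211 and 205 CPM in WT and 214, 223, 204 and 214 CPM in TDP-43Q331K. Its log2 fold change was -0.003 (95% interval -0.11 to 0.11), among the closest to 0 of all members. Ccnf, the cyclin F gene of a ubiquitin ligase, was the member of lowest level. It ranged from 4.20 to 5.38 CPM in WT (mean 4.60) and from 4.05 to 5.65 CPM in TDP-43Q331K (mean 4.74). The log2 fold change of Ccnf was 0.039, with a wide 95% interval of -0.25 to 0.33. Sod1, the superoxide dismutase gene that was the first to be linked to ALS, was at 153, 144, 157 and 140.0 CPM in WT and 146, 164, 133 and 146 CPM in TDP-43Q331K. The highest and the lowest of these were both mutant libraries, and the log2 fold change was -0.013 (95% interval -0.16 to 0.13). Dnajc7, a co-chaperone gene, was at 108, 109, 105 and 107 CPM in WT and 113, 108, 108 and 115 CPM in TDP-43Q331K. The log2 fold change of Dnajc7 was 0.045 (95% interval -0.04 to 0.13).

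The remaining disease genes act in the cytoskeleton, genome upkeep, mitochondria, lipids and RNA. Pfn1 encodes the actin-binding profilin and was at 80.2, 74.4, 88.8 and 79.01 CPM in WT and 73.03, 81.2, 78.4 and 76.1 CPM in TDP-43Q331K. Nek1, a kinase gene of cilia and DNA repair, was at 52.9, 69.05, 65.4 and 58.7 CPM in WT and 57.5, 49.7, 60.1 and 58.3 CPM in TDP-43Q331K. WT libraries of Nek1 were spread by 11.7% of their mean (SD), and both genes overlapped between groups, at log2 fold changes of -0.063 (95% interval -0.19 to 0.065) and -0.13 (95% interval -0.32 to 0.065). Chchd10, a gene of the mitochondrial inner membrane, was at 40.7, 35.96, 45.6 and 40.4 CPM in WT and 42.7, 41.7, 35.4 and 37.3 CPM in TDP-43Q331K, with a log2 fold change of -0.05 (95% interval -0.23 to 0.13). Sptlc1 encodes a subunit of the enzyme that starts sphingolipid synthesis and was at 30.7, 31.4, 29.8 and 29.3 CPM in WT and 31.2, 32.5, 29.97 and 31.1 CPM in TDP-43Q331K, with a log2 fold change of 0.041 (95% interval -0.068 to 0.15). These groups overlapped too. Atxn2 encodes an RNA-binding protein whose lowering is known to extend life in TDP-43 mice, and was at 108, 112, 104 and 105 CPM in WT and 121, 110.3, 116 and 117 CPM in TDP-43Q331K. Only TDP-43Q331K replicate 2 lay below the highest WT library, and the test gave a log2 fold change of 0.12 (SE 0.044, 95% interval 0.019 to 0.21, edgeR adjusted p 0.236).

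Autophagy begins with the kinase encoded by Ulk1 and the lipid kinase complex that holds the product of Becn1. Ulk1 was at 92.5, 86.4, 91.9 and 92.3 CPM in WT and 108, 95.5, 95.3 and 96.9 CPM in TDP-43Q331K. All 4 mutant libraries were above all 4 WT libraries and TDP-43Q331K replicate 1 was well above the other mutants. Means were 90.8 ± 2.95 (SD, n = 4) for WT and 98.9 ± 6.10 (SD, n = 4) for the mutants, in CPM, and the fit gave a log2 fold change of 0.12 (SE 0.05, 95% interval 0.013 to 0.24, edgeR adjusted p 0.265). Without TDP-43Q331K replicate 1 the log2 fold change was 0.072 (edgeR adjusted p 0.502), and over the 20 alternatives the adjusted p ran from 0.18 to 0.586. Becn1 was at 61.1, 58.8, 62.1 and 57.4 CPM in WT and 58.8, 59.6, 57.1 and 55.6 CPM in TDP-43Q331K, with a log2 fold change of -0.051 (95% interval -0.15 to 0.045). Exons of Becn1 overlap those of Cntd1 on the other strand over 43.9% of their length. Wdr45, which encodes a lipid-binding protein of the growing membrane, ranged from 9.90 to 11.8 CPM in WT (mean 10.9) and from 10.4 to 11.5 CPM in TDP-43Q331K (mean 11.1), with a log2 fold change of 0.022 (95% interval -0.15 to 0.19). It shares exon bases on the same strand with Gm45208, so its count is uncertain.

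Conjugation joins the ubiquitin-like proteins to lipid, with the E1-like enzyme encoded by Atg7 and the product of Atg5. Of the 6 members with this role 5 had a negative log2 fold change and 1 a positive one (16.7%, against 51.8% of all genes). Among the 5, Atg7 turned positive in 3 of the 20 alternatives, library size scaling included, and Atg5 in 5 of the 20. Map1lc3a, Gabarap and Gabarapl1 stayed negative in all 20. Map1lc3b, the positive one, turned negative in 5 of the 20. Only 1 of the 6, Map1lc3a, had an unadjusted p under 0.05 (16.7%, against 15.7% of all genes). Map1lc3a was at 134, 122, 156 and 132 CPM in WT and 111, 134, 105 and 119.5 CPM in TDP-43Q331K. WT replicate 3 was the highest, TDP-43Q331K replicate 2 alone of the mutants lay within the WT range, and the test gave a log2 fold change of -0.22 (SE 0.088, 95% interval -0.41 to -0.021, edgeR adjusted p 0.269). Without WT replicate 3 the log2 fold change was -0.14, and with the olfactory bulb and thalamus covariate it was -0.34. Gabarap was at 106, 101, 109.6 and 98.5 CPM in WT and 91.8, 105, 90.8 and 98.5 CPM in TDP-43Q331K, and Gabarapl1, the most abundant member per length, was at 441, 413, 460.4 and 434 CPM in WT and 437, 438, 404 and 415 CPM in TDP-43Q331K. In both genes the groups overlapped, with log2 fold changes of -0.10 (95% interval -0.23 to 0.022) and -0.047 (95% interval -0.16 to 0.063). Map1lc3b ranged from 168 to 193 CPM in WT (mean 177) and from 169 to 188 CPM in TDP-43Q331K (mean 179), with a log2 fold change of 0.012 (95% interval -0.11 to 0.13). Atg5 ranged from 21.5 to 24.2 CPM in WT (mean 23.1) and from 21.004 to 27.2 CPM in TDP-43Q331K (mean 22.8) and Atg7 from 28.5 to 30.7 CPM in WT (mean 29.4) and from 28.7 to 30.4 CPM in TDP-43Q331K (mean 29.2). Their log2 fold changes were -0.019 (95% interval -0.21 to 0.17) and -0.0086 (95% interval -0.12 to 0.10). TDP-43Q331K replicate 2 was the highest of the 8 libraries for Atg5, and for Atg7 it came next after WT replicate 1.

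The 3 lysosome members had log2 fold changes above 0, as had 51.8% of all genes, and none passed the adjusted test. The log2 fold change of Lamp1 turned negative with RLE scaling and with DESeq2. Lamp2 encodes a membrane protein of the lysosome, one form of which imports proteins for degradation, and was at 85.2, 74.2, 76.8 and 79.6 CPM in WT and 81.97, 92.6, 86.7 and 89.6 CPM in TDP-43Q331K. WT replicate 1 lay above the lowest mutant library and the other 3 WT libraries lay below it, with a log2 fold change of 0.15 (SE 0.054, 95% interval 0.032 to 0.27, edgeR adjusted p 0.209). Lamp1, the sister gene whose promoter window holds CACGTG 4 times, was at 217, 204, 212 and 213 CPM in WT and 198, 227, 207 and 216 CPM in TDP-43Q331K. Its highest and lowest libraries were both mutants, and the log2 fold change was 0.0037 (95% interval -0.11 to 0.12). Tfeb ranged from 5.91 to 6.99 CPM in WT (mean 6.41) and from 6.18 to 8.58 CPM in TDP-43Q331K (mean 7.24), with a log2 fold change of 0.18 (95% interval -0.07 to 0.42), so that neither no change nor a 1.25-fold rise lies outside its interval. The log2 fold change of Tfeb was 0.085 without TDP-43Q331K replicate 4 and 0.06 with the olfactory bulb and thalamus covariate. Of the other members with the motif, Atxn2 was at 0.12, Atg5 at -0.019 and Atg7 at -0.0086.

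Levels of the members can be compared per length of exon, on CPM per kb, although summed exon lengths include all annotated isoforms. In WT the mean level was highest for Gabarapl1, at 217 CPM per kb, followed by Sqstm1 at 117, Map1lc3a at 115 and Lamp1 at 79.1 CPM per kb. WT libraries of Sqstm1 and Map1lc3a overlapped, so their order is not settled. The lowest were Ccnf at 0.59 and Tfeb at 1.13 CPM per kb. In TDP-43Q331K the same 4 genes led, at 210.4, 113, 99.3 and 79.3 CPM per kb.

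**Figure D3:**
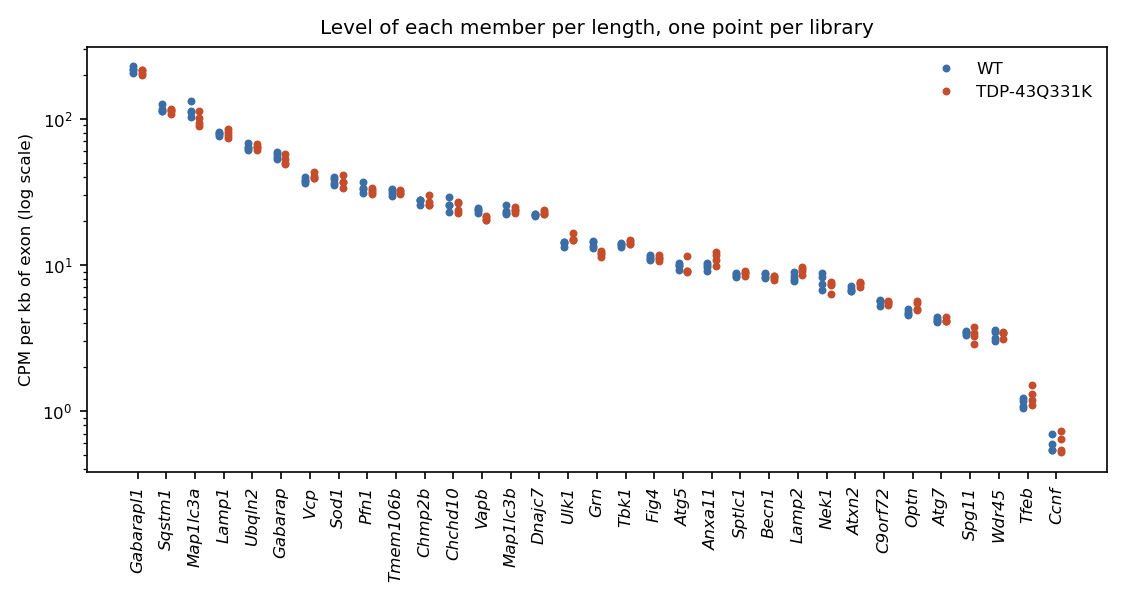
CPM per kb of summed exon length (log scale) of each member in each library, with blue points for WT and red points for TDP-43Q331K, ordered by the WT mean. Levels run from Gabarapl1 at 217 to Ccnf at 0.59 CPM per kb in WT, and the points of the genotypes lie close together within each gene.

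The members varied little within a group. Their median standard deviation was 4.68% of the mean in WT and 4.48% in TDP-43Q331K, against 7.30% and 7.52% over all genes. The 167 other pathway genes described below were alike, at 4.56% and 4.99%. All genes reach down to a WT mean of 0.10 CPM, against 4.60 CPM for the lowest member, and the spread was not compared at matched levels. Libraries were not evenly placed, however. TDP-43Q331K replicate 2 was the highest of its group in 22 of the 33 members (66.7%), against 27.4% of all genes. WT replicate 3 was the highest of its group in 16 members (48.5%), against 28.9% of all genes. WT replicate 4 was highest in 1. With TDP-43Q331K replicate 2 left out, no member passed the adjusted test, as in each of the other 7 fits that leave out 1 library. The full fit also called 0 members, so that count cannot show what this library contributes. Without TDP-43Q331K replicate 2 the median log2 fold change of the members was -0.031, against -0.0086 in the full fit, and that of all genes was 0.0057. Without TDP-43Q331K replicate 3 the median of the members was 0.014.

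Differences followed exon length weakly across the table. In 10 bins of protein-coding genes of at least 5 CPM in WT, the median log2 fold change rose from -0.053 in the shortest bin to 0.039 in the longest. The Spearman correlation of log2 fold change with exon length was 0.23 over those 11397 genes and 0.34 over the 33 members. Whether these values differ was not tested. Medians of the members, grouped by length, did not rise steadily. Of the 11 shortest, up to 3344 bases, 9 were negative, of the 11 in the middle 4, and of the 11 longest, from 6488 bases, 5, with median log2 fold changes of -0.019, 0.045 and 0.0052. When the trend was removed, in a fit added after the data were seen, 0 members were called, with Vapb at -0.20 (edgeR adjusted p 0.063), Grn at -0.21 (0.081) and Map1lc3a at -0.17 (0.26). The adjusted p of Map1lc3a ran from 0.163 to 0.475 over the 20 alternatives.

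**Figure D4:**
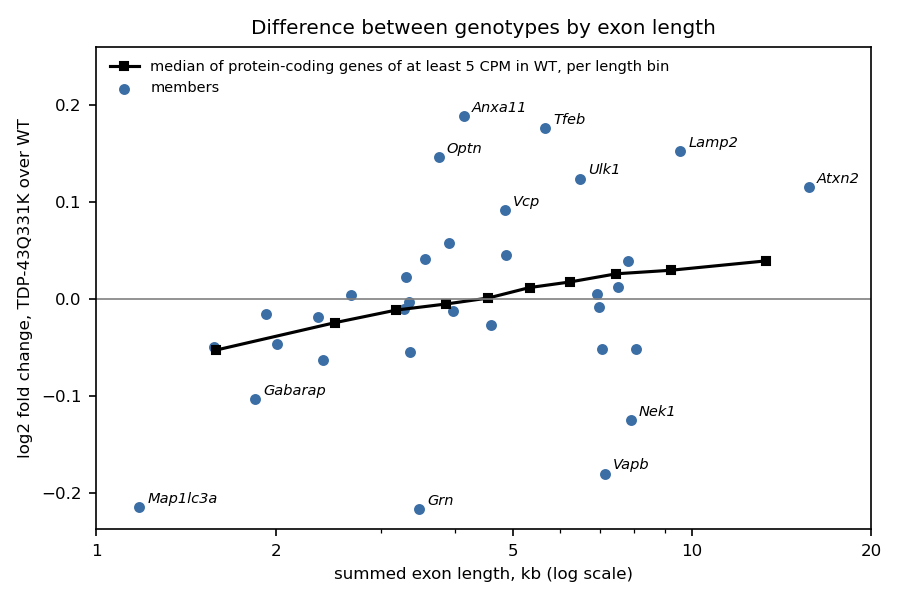
Log2 fold change (TDP-43Q331K over WT) against summed exon length in kb (log scale) for the 33 members (blue points) and for the median of protein-coding genes in 10 length bins (black squares). The bin medians rise from -0.053 to 0.039, while Vapb, Grn and Anxa11 lie well away from that line.

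Around the members, 169 further genes of the pathway were listed by function, and 167 were in the table. One of the 167 passed edgeR's adjusted test, or 0.599%, against 0.943% of all genes. It was Rraga, which encodes a small GTPase that brings the growth kinase mTORC1 to the lysosome. Rraga was at 89.7, 92.4, 92.6 and 88.2 CPM in WT and 77.3, 79.8, 79.4 and 77.001 CPM in TDP-43Q331K, without overlap. It fell in the mutants, with means of 90.7 ± 2.15 (SD, n = 4) for WT and 78.4 ± 1.43 (SD, n = 4) for the mutants, in CPM, and the fit gave a log2 fold change of -0.21 (SE 0.037, 95% interval -0.29 to -0.13, edgeR adjusted p 0.0274). That call was kept in the fit without WT replicate 4 (0.0428) and lost in the other 7 fits that leave out 1 library, at up to 0.0954. The log2 fold change moved little, from -0.22 to -0.17 over the 20 alternatives, while the adjusted p was 0.203 with the olfactory bulb and thalamus covariate, 0.0901 with that of the choroid plexus and 0.0592 with the length trend removed, and over the 20 edgeR, DESeq2 and limma alternatives the adjusted p ran from 1.72e-05 to 0.203. Of the 167, 14 were higher and 12 lower with an unadjusted p below 0.05, or 15.6% against 15.7% of all genes. The DESeq2 test called 7, or 4.19% against 4.47%, so that both counts were close to the background.

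Of the 33 lysosomal hydrolases and cofactors, 0 passed the adjusted edgeR test, 23 were positive (69.7%, against 51.8% of all genes), and the median log2 fold change was 0.063. With an unadjusted p below 0.05, 6 were higher (18.2%, against 7.91% of all genes) and 1 was lower (3.03%, against 7.77%). DESeq2 called 2 of the 33 (6.06%, against 4.47%), of which Manba, a mannosidase gene, is described here. Manba was at 11.01, 10.3, 10.6 and 10.9 CPM in WT and 12.8, 14.2, 12.4 and 13.9 CPM in TDP-43Q331K, with a log2 fold change of 0.32 (95% interval 0.17 to 0.47) and edgeR adjusted p 0.0602 (DESeq2 0.00447, 0.00447 to 0.375 over the alternatives). All 4 mutant libraries of Manba were above all 4 WT libraries.

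Of the 30 partners of the member gene products, 0 passed the adjusted edgeR test. By unadjusted p below 0.05, 1 was higher (3.33%, against 7.91% of all genes) and 3 were lower (10%, against 7.77%). DESeq2 called 3 (10%, against 4.47% of all genes). Of these, Ccs and Sort1 are named here by rule and Anxa7, an annexin gene at -0.18 (edgeR adjusted p 0.125, DESeq2 0.0308), after its values were seen. Ccs encodes the chaperone that loads copper into the Sod1 product. It was at 13.2, 13.5, 13.6 and 13.3 CPM in WT and 11.1, 10.9, 11.4 and 11.8 CPM in TDP-43Q331K, without overlap, a log2 fold change of -0.25 (95% interval -0.38 to -0.12) with edgeR adjusted p 0.0774 (DESeq2 0.0106, 0.0106 to 0.376 over the alternatives). Sod1 itself was at -0.013. Sort1 was at 675, 662, 616 and 675 CPM in WT and 601, 576, 598 and 564 CPM in TDP-43Q331K, without overlap, a log2 fold change of -0.17 (95% interval -0.27 to -0.066) with edgeR adjusted p 0.122 (DESeq2 0.00918, 0.00918 to 0.519 over the alternatives). Both Sort1 and Grn were lower in all 4 mutant libraries than in any WT library, as were 5.19% of all genes. Neither passed the adjusted edgeR test, and a link between them was not tested.

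The 28 other autophagy core genes had 0 past the adjusted edgeR test and a median log2 fold change of 0.0076. DESeq2 called 1 (3.57%, against 4.47% of all genes). By unadjusted p below 0.05, 2 were higher (7.14%, against 7.91% of all genes) and 1 lower (3.57%, against 7.77%). Atg2b encodes a lipid transfer protein of the growing membrane and was at 60.5, 60.3, 59.4 and 60.7 CPM in WT and 72.7, 68.3, 68.1 and 64.5 CPM in TDP-43Q331K. Its mutant libraries all exceeded the WT range, with a log2 fold change of 0.18 (95% interval 0.087 to 0.28) and edgeR adjusted p 0.0877. Atg2b was the core gene called by DESeq2 (adjusted p 0.017), and over the 20 alternatives its adjusted p ran from 0.017 to 0.371. Rubcn, a negative regulator of autophagy, was at 0.15 (edgeR adjusted p 0.127). The 12 other receptors had 0 past the adjusted edgeR test, 0 by DESeq2 and 0 with an unadjusted p below 0.05 (against 15.7% of all genes). Their median was 0.061, with Tax1bp1 at 0.12 and Tex264 at -0.08.

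The 16 subunits of the V-ATPase, the pump that acidifies the lysosome, had a median of -0.019, with 0 past the adjusted edgeR test and 0 by DESeq2. By unadjusted p below 0.05, 0 were higher (against 7.91% of all genes) and 2 lower (12.5%, against 7.77%). Those 2 were Atp6v1d at -0.14 and Atp6v0e2 at -0.10. The 20 lysosomal membrane proteins had 0 past the adjusted edgeR test and 0 by DESeq2. With an unadjusted p below 0.05, 2 were higher (10%, against 7.91% of all genes) and 2 lower (10%, against 7.77%). Scarb2 was at 0.12 and Lamtor4 at -0.23. Of the 17 measured regulators of Tfeb and mTORC1, Rptor, the raptor gene, was at 0.12. By unadjusted p below 0.05, 3 of the 17 were higher (17.6%, against 7.91% of all genes) and 2 lower (11.8%, against 7.77%). The 11 ESCRT-III genes other than Chmp2b had a median of -0.085, with 0 past the adjusted edgeR test and 0 by DESeq2. Of the 11, 8 were negative and 3 positive (27.3%, against 51.8% of all genes). By unadjusted p below 0.05, 1 was lower (9.09%, against 7.77% of all genes). The smallest p values were those of Vps4a at -0.12 and Ist1 at -0.083.

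**Figure D5:**
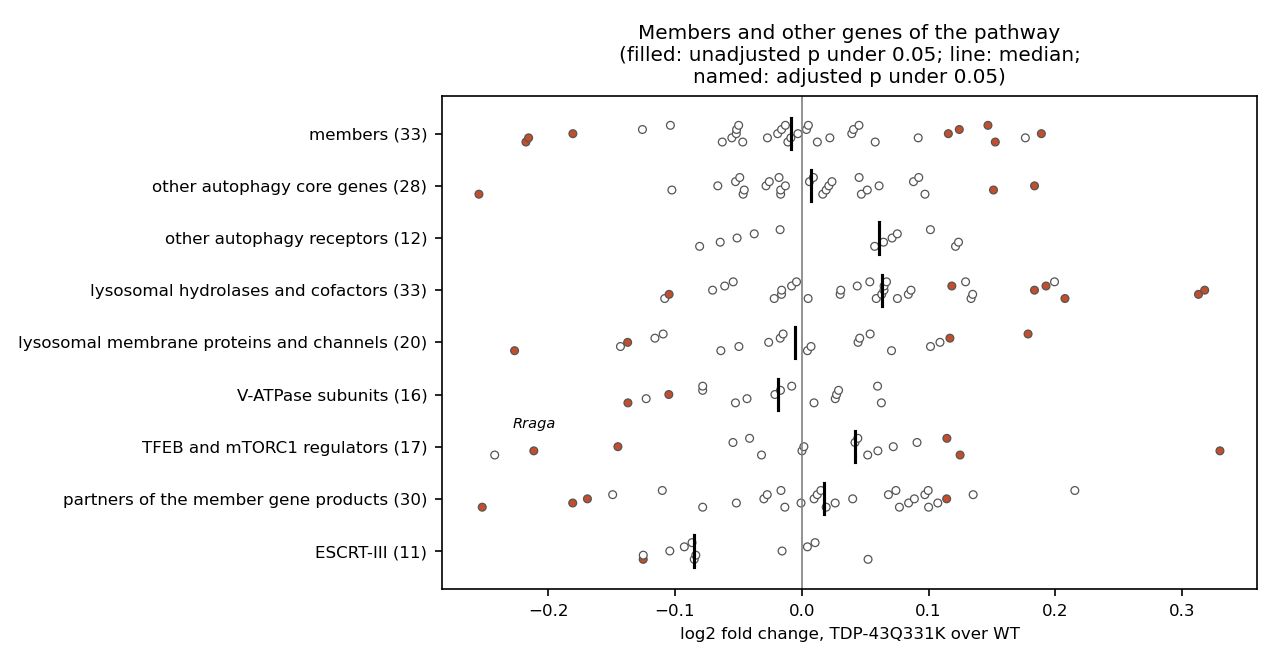
Log2 fold change (TDP-43Q331K over WT, x axis) of the 33 members and of 167 other genes in 8 lists, 1 point a gene, filled where the unadjusted p is under 0.05, with the median as a black line. Rraga is the gene past the adjusted test, and medians lie between -0.085 and 0.063.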

How the data were processed

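Per the labels' protocols, cortex was flash-frozen and oligo(dT) beads captured RNA for stranded libraries. Tools listed without roles, per the submitters' processing notes, are R 4.3.1, edgeR 4.4.2 and STAR 2.7.6a, and the listed build is GRCm39. The sources used here give neither the program, annotation nor strand setting of the counting. Raw counts per gene were deposited by the authors. Their second table holds a normalised signal, per the file headers TMM values, in a constant ratio to the counts of each library. Library names linked columns to samples, and 0 columns were left over.

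Counts were analysed in R 4.3.3 with edgeR 4.0.16 (TMM, filterByExpr, which removed 0 genes, intercept and genotype, quasi-likelihood F-test, 6 residual degrees of freedom). The adjustment of p was by Benjamini-Hochberg across the 15693 genes, and 0.05 was the threshold. Intervals are log2 fold changes with their moderated standard errors. Symbols and exon lengths came from GENCODE M21 (GRCm38), by gene identifier, for 15471 genes; no coordinates of the deposited data are given. Copies were sought with blastn 2.17.0 (identity of 90% or more, covering 50% or more of the shorter transcript). Copies not named above were found for Sod1, Pfn1, Lamtor4 and Vps4a, and none of these copies was in the count table. Pairs of libraries within a group differed beyond sampling noise (chi-square over its degrees of freedom, 14.6 or more).

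The members and lists were chosen with earlier results of these data known. Every member is named; all 8 values are printed for the 10 with the smallest p and for the 2 with the highest level per length in each role. Of each other list, called genes and the 2 with the smallest p are named, except for an item that is not reported here. On simulated counts for this comparison and 15693 genes, the test found 29.9% of 67 genes set to a 1.25-fold difference, 79.1% of 67 set to 1.5-fold, and 95.5% of 66 set to 2-fold. Those genes were drawn at random from the whole table, which reaches lower levels and has a wider median spread than the members. The rates are therefore not those of the members. Alternatives were RLE and library size scaling, no filter, CPM over 1 in 4 libraries, DESeq2 1.42.0, limma 3.58.1 (voom, and trend on log2 of the deposited values with 1 added), a block for replicate number, covariates of Xist and of markers of adjoining tissues, and each library left out. Removal of the length trend was added after the data were seen. Text and figures used Python 3.11.15.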

Additional observations from a re-analysis of the deposited data

Results flagged for a closer look

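In 5 of the 98 pairs of gene and group examined, 1 library stood far from the other 3, by the Dixon criterion at 95%. Chance alone flags about 1 in 20 such groups. Chmp2b was at 49.5 CPM in WT replicate 2, below 53.8 to 53.98 CPM in the other WT libraries. Ulk1 was at 86.4 CPM in WT replicate 2, below 91.9 to 92.5 CPM in the others, and at 108 CPM in TDP-43Q331K replicate 1, above 95.3 to 96.9 CPM in the others. Atg5 was at 27.2 CPM in TDP-43Q331K replicate 2, above 21.004 to 21.5 CPM, and Atg7 at 30.4 CPM in the same library, above 28.7 to 28.9 CPM.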

How the results depend on the processing

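Over 12 alternatives and 8 fits that leave out 1 library, the count of members called was 0 except with DESeq2, which called 2. The count over all genes was 148, and 701 with DESeq2, 14 with the replicate block, 12 with the olfactory bulb and thalamus covariate, and between 51 and 129 with 1 library left out (WT replicates 1 to 4: 51, 73, 97 and 129, and TDP-43Q331K replicates 1 to 4: 81, 92, 71 and 97). The other pathway genes called numbered 1, and 7 with DESeq2, 2 with Xist as a covariate, 0 with the replicate block, 0 with either tissue covariate, and between 0 and 1 with 1 library left out; with the length trend removed the count was again 1, but Rraga was not called. Same-numbered libraries of the groups correlated at -0.41 to 0.033 in their deviations from the group means, and 0 of the 4 WT libraries correlated best with their own number, so the libraries share only a number. The block moved no member past the threshold. Scaled by library size alone, 64 genes rose and 73 fell, against 54 and 94 with TMM, and with the choroid plexus covariate 57 rose and 55 fell.

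The sign was kept in all 20 fits by 20 of the 33 members and by all 16 named pathway genes. Those 16 were named for being called or for a small p in the main fit of the same libraries. Their kept signs were thus largely set by that choice and are no separate support. The other 13 members had log2 fold changes within 0.052 of 0. With library size scaling the log2 fold change turned, for Sod1 to 0.00185, Ubqln2 to 0.012, Fig4 to 0.00398 and Atg7 to 0.00649. The olfactory bulb and thalamus covariate turned Ubqln2 to 0.0418, Ccnf to -0.0592, Wdr45 to -0.0228, Map1lc3b to -0.0652 and Lamp1 to -0.0196, and that of the choroid plexus turned Tmem106b to -0.0249 and Lamp1 to -0.0366. Lamp1 was at -0.00125 with RLE and -0.00115 with DESeq2. Removing the length trend turned Ubqln2 to 0.00592, Tmem106b to -0.0139, Chmp2b to 0.0147, Atg5 to 0.0026 and Map1lc3b to -0.0107. Leaving out 1 library gave ranges of -0.12 to 0.018 for Atg5, -0.028 to 0.013 for Atg7, -0.057 to 0.12 for Ccnf, -0.10 to 0.0099 for Chchd10, -0.066 to 0.0092 for Chmp2b, -0.034 to 0.014 for Fig4, -0.031 to 0.029 for Lamp1, -0.013 to 0.057 for Map1lc3b, -0.068 to 0.033 for Sod1, -0.11 to 0.013 for Spg11, -0.023 to 0.027 for Tmem106b, -0.025 to 0.031 for Ubqln2 and -0.022 to 0.062 for Wdr45. The cause of these shifts was not tested. The depth gave each member at least 192 counts a library, and the spread of 4 animals a group limits what differences can be called.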

Other observations

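Several lysosomal genes outside the naming rule, chosen after their values were seen, did not pass the adjusted test. Gaa, the acid glucosidase gene, was at a log2 fold change of 0.18 (edgeR adjusted p 0.209), Lipa, the acid lipase gene, at 0.19 (0.139), and Galc, the galactosylceramidase gene, at 0.21 (0.23). Smpd1, the acid sphingomyelinase gene and the 1 of the hydrolase list that was lower with an unadjusted p below 0.05, was at -0.10 (0.253). Mitf, which encodes a relative of the Tfeb product, was at 0.33 (0.244), and Atg10, the E2-like enzyme of Atg12 conjugation, at -0.25 (0.141). Lipa and Atg10 did not overlap between the groups, with Lipa higher and Atg10 lower in all 4 mutant libraries. Over all genes, 9.68% did not overlap. The oligodendrocyte markers summed to between 3650 and 4295 CPM in WT and between 3704 and 5190 CPM in TDP-43Q331K, with 6 of 6 positive and none past the adjusted test, and their part in the values of Galc was not tested.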
